A study of Arabidopsis thaliana with 12 samples.

Results

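PSAN (locus AT5G64040) encodes a small subunit of photosystem I, and its transcript was read by a single probe, number 85, of the 3439 probes on the array. It is the 1 probe that the platform annotation assigns to PSAN and to no other gene. RNA was compared between 6 samples of the psae1 mutant, which lacks the photosystem I protein PSI-E1, and 6 samples of the wild type (WT). Both genotypes are Arabidopsis thaliana plants of the Columbia 0 ecotype, and samples are numbered 1 to 6 within each. The labels give no tissue, age or growth condition, and do not say whether the samples came from separate plants, so the p-values cover sample-to-sample spread that may be only technical.

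Photosystem I is the thylakoid complex that takes electrons from plastocyanin in the lumen and passes them to ferredoxin in the stroma. PSAN is encoded in the nucleus, carried through the plastid and across the thylakoid membrane by the Tat pathway, and sits on the lumenal side, where it helps plastocyanin deliver electrons. PSAE, the subunit affected in the mutant, lies on the opposite, stromal side near the site where ferredoxin docks, and in Arabidopsis it is encoded by PSAE1 and its paralogue PSAE2. The comparison asks whether the transcript of a lumenal subunit differs in level in a mutant of 1 of the 2 genes for a stromal subunit.

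The deposited values are linear intensities with no stated background correction or scaling, and the number of arrays limits the precision. The summed intensity per sample was 3436 to 3564 in psae1 and 3611 to 3678 in WT. The column median, over values above 0, was 0.494 to 0.526 in psae1 and 0.597 to 0.618 in WT, so the median probe was lower by 0.25 on the log2 scale in psae1. Each column was therefore centred on its median after log2 conversion, and a centred difference is relative to the median probe. There were 0 single-gene probes for PSAE1 and 0 for PSAE2, so PSAE1 itself could not serve as a check of the genotypes. Of 8 genes listed as markers of roots, flowers, pollen or seeds, 0 had a single-gene probe, so tissue makeup was not checked either. Consecutive numbers deviated together within a genotype. Across 3257 probes, which are not independent replicates, the deviations from the genotype mean correlated at r = 0.33 to 0.58 for numbers 1 and 2, 3 and 4, and 5 and 6 in psae1, and at r = 0.43 to 0.61 in WT. Results are therefore also given with these numbers averaged, as 3 samples against 3.

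PSAN was brighter in psae1 than in WT. Its deposited intensity was 5.62, 4.95, 5.77, 5.69, 5.54 and 6.16 in psae1 samples 1 to 6, against 4.55, 4.64, 4.61, 4.80, 4.54 and 4.67 in WT samples 1 to 6. All 6 psae1 values lay above all 6 WT values, with psae1 2 the closest to WT and psae1 6 the farthest. The mean was 5.62 ± 0.393 in psae1 and 4.64 ± 0.0943 in WT (SD, n = 6 each). Such a complete separation upwards in the deposited values was seen in 1.16% of the 3279 probes tested, those with at least 3 values above 0 in each genotype. After centring it was seen in 6.71% of them.

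On the centred log2 scale PSAN averaged 3.45 ± 0.129 in psae1 and 2.93 ± 0.0264 in WT (SD, n = 6 each). The difference was 0.52 ± 0.07 (SE, limma adjusted p = 0.00015), with a 95% interval of 0.38 to 0.66, or 1.44-fold. This fit, over 12 samples, called 22.8% of the probes tested, and 11.9% as higher in psae1, so a call as such was common. With numbers averaged in pairs the standard error was 0.11 in place of 0.07 and PSAN passed narrowly (limma adjusted p = 0.043), where 2.32% of probes were called and 1.16% were called higher. In bulk RNA, a change in the share of cells that express a gene and a change in its RNA per cell cannot be told apart.

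The size of the difference depended on the scaling, while its direction did not. Taken as deposited, PSAN differed by 0.28 on the log2 scale (95% interval 0.15 to 0.41, limma adjusted p = 0.0021), where 3.39% of probes were called higher. After quantile normalization it was 0.22 (0.09 to 0.36, limma adjusted p = 0.028), where 7.41% of probes were called higher. After cyclic loess normalization it was 0.21 (0.07 to 0.35, limma adjusted p = 0.038), where 8.48% were called higher. Under both of these normalizations the lowest psae1 value fell below the highest WT value. The log2 level then ran from 2.29 to 2.63 in psae1 against 2.18 to 2.33 in WT after quantile normalization. After cyclic loess normalization it ran from 2.32 to 2.67 in psae1 against 2.19 to 2.36 in WT. When numbers were averaged in pairs as well, PSAN did not pass as deposited, after quantile or after cyclic loess normalization (limma adjusted p = 0.089, 0.36 and 0.39).

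**Figure D1:**
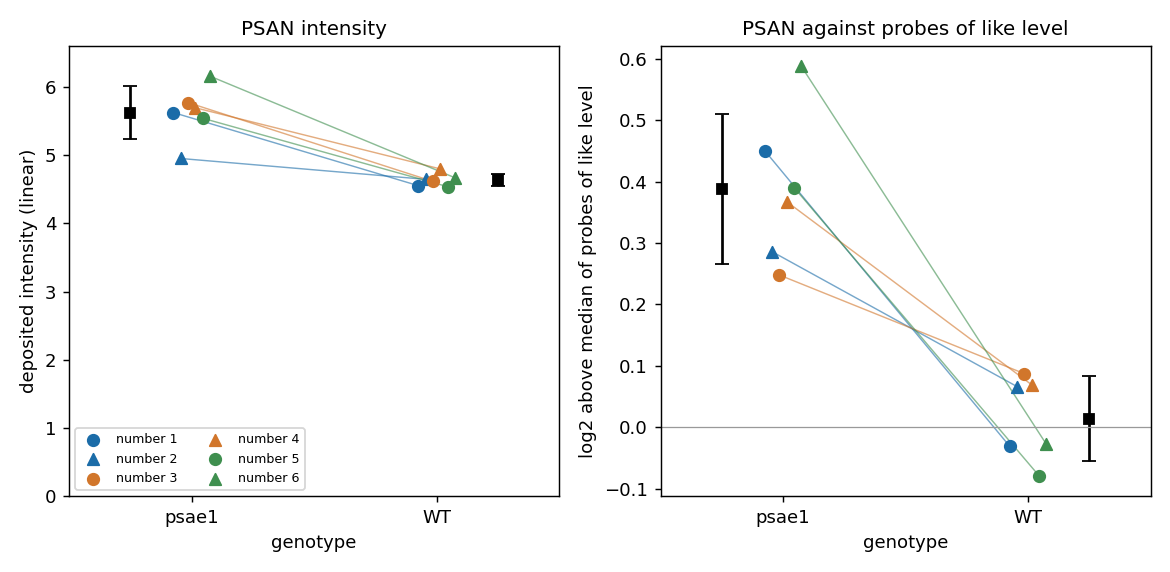
Left, the deposited linear intensity of PSAN in each of 6 psae1 and 6 WT samples; right, its centred log2 value minus the median of 21 probes of like level. Lines join samples of equal number, colours mark numbers 1 and 2, 3 and 4, and 5 and 6, and black squares give the mean ± SD of each genotype. In both panels all psae1 points lie above all WT points.

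A measure that needs no scaling is the place of PSAN in its own column, counted from the brightest of 3439 probes. It stood at places 67, 76, 67, 69, 66 and 59 in psae1 samples 1 to 6, against 86, 80, 79, 74, 86 and 86 in WT samples 1 to 6. The genotypes overlapped here, since psae1 2 stood behind WT 4. PSAN stood nearer the top in psae1, at place 67.3 ± 5.47 in psae1 and 81.8 ± 4.997 in WT (SD, n = 6 each; exact permutation test, two-sided p = 0.0043, smallest possible 0.0022). This test and the other exact tests below treat the 6 samples as independent, which consecutive numbers are not. With 3 averages against 3, the smallest two-sided p an exact permutation test can give is 0.10.

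PSAN lay at a level percentile of 97.5 among the tested probes by mean WT intensity. It was set against probes of its own level. There were 21 other probes whose mean WT intensity was within 10% of its own, between 4.17 and 5.10, and 0 of them had a single gene listed. Their centred differences ran from −0.91 to 0.55 with a median of 0.21, against 0.52 for PSAN. The difference was above 0 in 14 of them, and 1 of 21 exceeded PSAN. After centring, 8 of the 21 had every psae1 value above every WT value, against 6.71% of all tested probes. Of the 21, limma called 8 higher and 3 lower, against 11.9% and 10.9% of all tested probes, and with numbers averaged 0 higher and 2 lower (8 and 3 at an unadjusted p under 0.05).

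Setting each sample's PSAN value against the median of these 21 probes removed any shift they shared with it. PSAN stood above that median by 0.45, 0.29, 0.25, 0.37, 0.39 and 0.59 on the log2 scale in psae1 samples 1 to 6. In WT samples 1 to 6 it stood at −0.03, 0.07, 0.09, 0.07, −0.08 and −0.03 from it. The WT values lie around 0 by construction, since the 21 probes were chosen for their WT level. The rearrangements in the exact test kept these probes, so its p does not allow for that choice. The same holds for the other tests against probes chosen by WT level. All 6 psae1 samples lay above all 6 WT samples, with the lowest psae1 value at number 3 and not at number 2. The mean was 0.388 ± 0.122 in psae1 and 0.0140 ± 0.0686 in WT (SD, n = 6 each), a difference of 0.37 (exact permutation test, two-sided p = 0.0022, the smallest possible). With numbers averaged the exact permutation test gave p = 0.10, also the smallest possible.

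Narrower and wider definitions of like level left the sign in place. Probes within 5% of the WT mean numbered 13 and gave 0.42, and 41 probes within 20% gave 0.34 (exact permutation test, n = 6 each, p = 0.0022 for both). Choosing probes by the mean of all 12 samples, which does not tie the choice to WT, left 17 probes and a smaller difference of 0.20 (exact permutation test, n = 6 each, p = 0.0065). Of these 17 probes, 3 exceeded PSAN in their centred difference, and their median was 0.31. The like-level difference was 0.34 after quantile and 0.36 after cyclic loess normalization. It moved less with the scaling than the plain difference did, and centring does not bear on it.

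**Figure D2:**
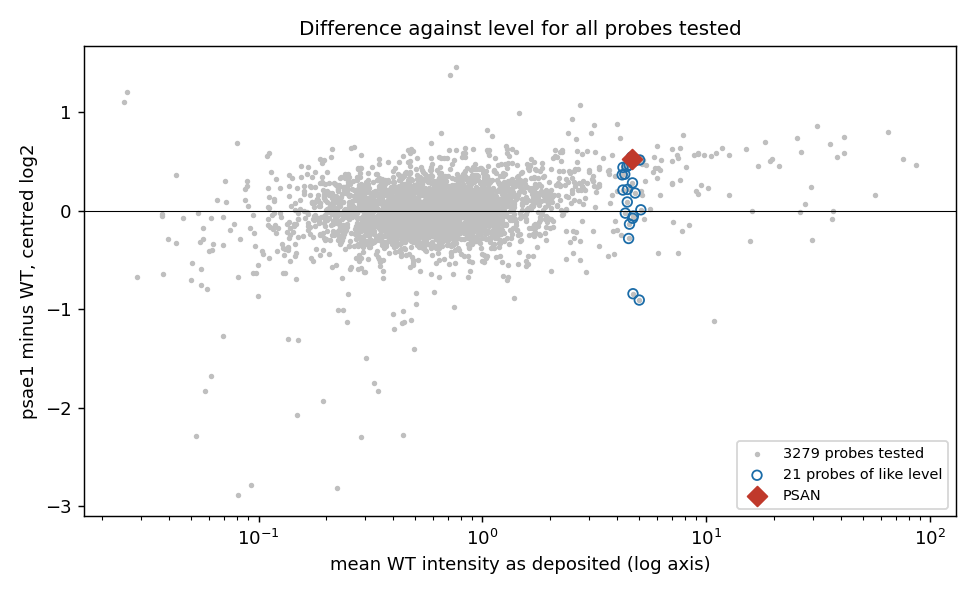
Centred log2 difference, psae1 minus WT, against mean WT intensity as deposited (log axis) for 3279 tested probes. Grey points are all probes, blue rings the 21 probes of like level and the red diamond PSAN, which lies near the top of the rings at 0.52, with 1 ring above it.

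The spread of PSAN was larger in psae1 than in WT, by an amount that depended on the scaling. This was not tested. In WT the SD of its centred log2 value was 0.0264, lower than in any of the 21 probes of like level, whose median SD was 0.112 in WT. In psae1 the SD was 0.129, close to the median of 0.113 over the same 21 probes, 10 of which had a larger SD than PSAN. Between the 2 samples of a consecutive pair, PSAN differed by 0.19, 0.04 and 0.15 on the log2 scale in psae1, against 0.02, 0.04 and 0.06 in WT. The widest gap was between psae1 1 and psae1 2. After quantile normalization the SD was 0.109 in psae1 and 0.0624 in WT. After cyclic loess normalization it was 0.113 in psae1 and 0.0601 in WT.

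Compared between samples of equal number, PSAN was higher in psae1 in 6 of 6. After centring, the differences for numbers 1 to 6 were 0.52, 0.31, 0.58, 0.49, 0.58 and 0.66 on the log2 scale, with number 2 lowest and number 6 highest (exact sign-flip permutation test, n = 6, two-sided p = 0.031, the smallest possible). A rise in 6 of 6 was seen in 17.5% of the probes tested, and in 11 of the 21 probes of like level. As deposited, the psae1 over WT ratio was 1.24, 1.07, 1.25, 1.19, 1.22 and 1.32 for numbers 1 to 6. Number 2 was nearly level after quantile and cyclic loess normalization, at 0.04 and 0.03 on the log2 scale, and number 6 was the highest under both, at 0.45 and 0.42.

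Relative to the probes of like level, the same-numbered differences were 0.48, 0.22, 0.16, 0.30, 0.47 and 0.62 for numbers 1 to 6. All 6 were above 0 (exact sign-flip permutation test, n = 6, two-sided p = 0.031, the smallest possible). Numbers 5 and 6 averaged 0.54 on this scale, numbers 1 and 2 averaged 0.35, and numbers 3 and 4 averaged 0.23. Within single numbers, between 1 and 7 of the 21 like-level probes had a larger difference than PSAN, with the fewest at number 6 and the most at number 2. Numbers 1, 3 and 5 averaged 0.56 and numbers 2, 4 and 6 averaged 0.49 after centring. Relative to the probes of like level these means were 0.37 and 0.38. With all 6 differences above 0, both means had to be above 0 as well.

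**Figure D3:**
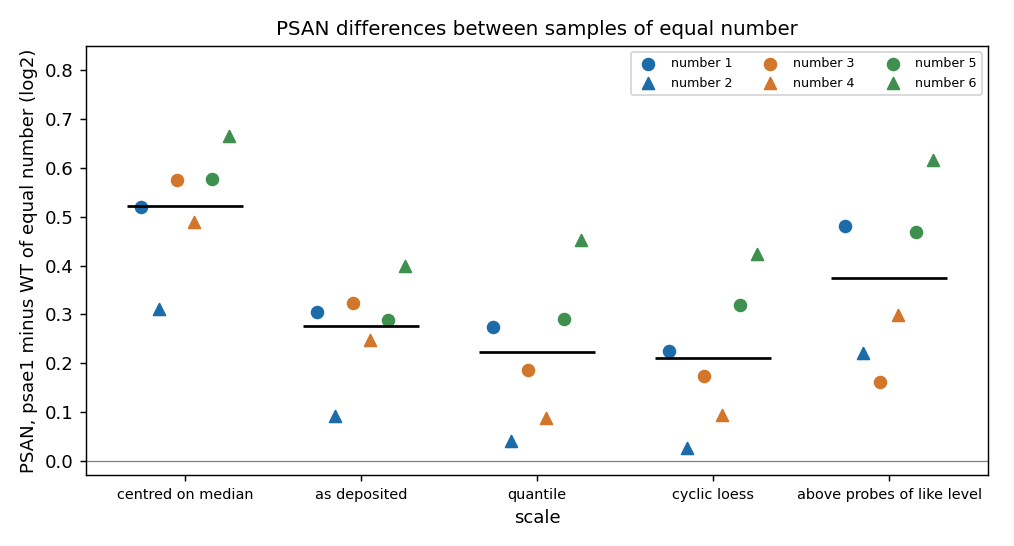
PSAN differences, psae1 minus WT of equal number, on the log2 scale under 4 scalings and relative to the probes of like level. Points are the 6 numbers and black lines their mean; all points lie above 0, and number 2 is the lowest under the 4 scalings.

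Among all 3279 tested probes the centred difference of PSAN ranked 99, and among the 653 tested single-gene probes it ranked 11. After quantile normalization these ranks were 432 and 63, and after cyclic loess normalization 535 and 81. PSAN was thus among the higher rises on the centred scale and lay further down the ranking on the other 2.

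The error of PSAN was also set in other ways. With the equal numbers as a replicate block its difference of 0.52 kept an adjusted p of 0.00087 (limma), and with a random block for consecutive numbers an adjusted p of 0.011 (limma). With averages and the replicate block the adjusted p was 0.030 (limma). Leaving out numbers 1 and 2 gave 0.58, leaving out 3 and 4 gave 0.52, and leaving out 5 and 6 gave 0.47, each past the threshold.

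**Figure D4:**
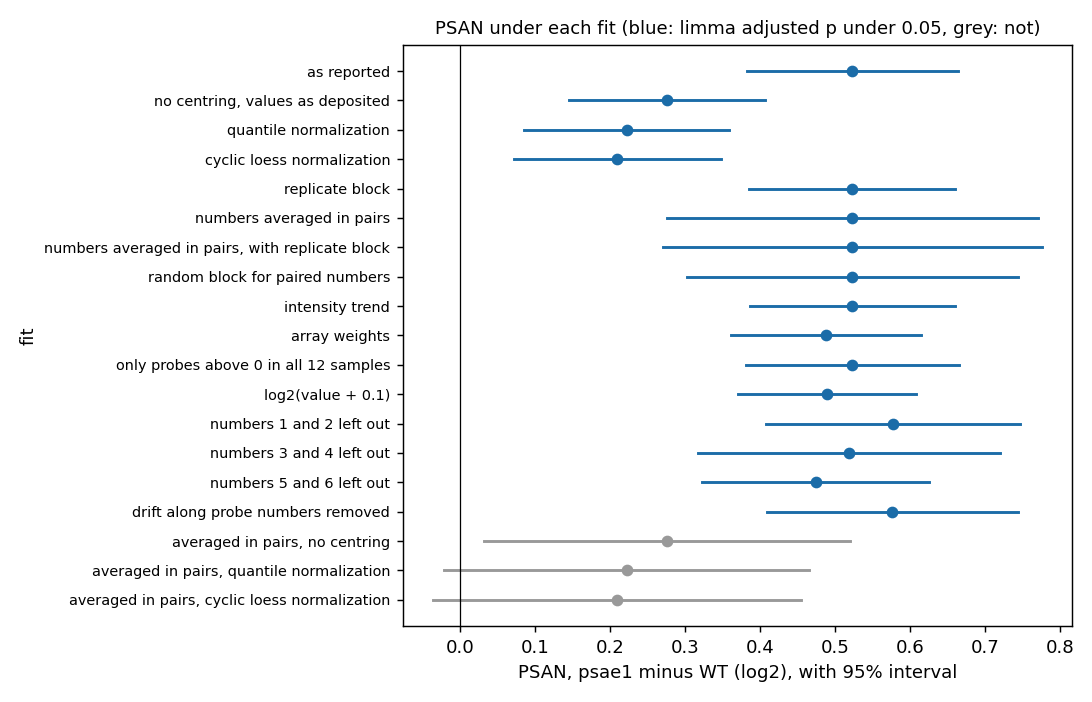
PSAN difference, psae1 minus WT, on the log2 scale with its 95% interval under each limma fit. Blue marks an adjusted p under 0.05 and grey does not; all estimates lie above 0, and the 3 grey fits average numbers in pairs without centring or after another normalization.

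Other genes of the photosynthetic light reactions were taken from 8 lists of 68 nuclear genes, PSAN included, of which 6 had a single-gene probe that could be tested. Of the 5 other than PSAN, 2 rose, 1 fell and 2 did not pass, where 11.9% of all tested probes were called higher and 10.9% lower. Their median centred difference was 0.08, against 0.01 over all probes tested. With numbers averaged in pairs, where 2.32% of probes were called, 1 of the 6 passed, PSAN, close to the threshold, and 3 were at an unadjusted p under 0.05. With averages and the replicate block 3 of the 6 passed, PSAN, LHB1B2 and PSBY (limma adjusted p = 0.030, 0.034 and 0.049), and the same 3 passed with the random block. PSAN was the only one of 12 photosystem I subunit genes with a single-gene probe. The antenna of photosystem I, the electron carriers, Tat import and the plastid ATP synthase had 0 tested members.

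AT1G22700, the tested locus in the list of photosystem I assembly factors, was lower in psae1. Its deposited intensity was lowest 0.499, median 0.553 and highest 0.622 in psae1, against 0.717, 0.766 and 0.852 in WT. The genotypes did not overlap, as in the 26.7% of tested probes with every deposited psae1 value below every WT value. The centred difference was −0.22 ± 0.06 (SE, limma adjusted p = 0.022). AT1G22700 passed in 21 of 30 alternative fits and not in 9. It did not pass with averaged numbers after centring (limma adjusted p = 0.29), nor without WT 4 (limma adjusted p = 0.051). With the random block (limma adjusted p = 0.32), or with any consecutive pair of numbers left out (limma adjusted p = 0.060 to 0.12), it did not pass either. In averages as deposited it passed (limma adjusted p = 0.023).

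LHB1B2, an antenna protein of photosystem II with close copies in the genome that its probe may also read, rose by 0.51 ± 0.07 (SE, limma adjusted p = 0.00031). Its deposited intensity was 21.4 to 24.1 in psae1 and 17.0 to 21.3 in WT, so the genotypes narrowly did not overlap. Of all tested probes, 1.16% had every deposited psae1 value above every WT value. Its difference shrank to 0.07 after quantile and 0.08 after cyclic loess normalization without passing, while PSAN kept 0.22 and 0.21 and passed. Whether the 2 genes differ from each other was not tested. PSBY, a small membrane protein of photosystem II, rose by 0.49 ± 0.09 (SE, limma adjusted p = 0.0014), and with averaged numbers PSBY and LHB1B2 were at limma adjusted p = 0.074 and 0.055. Like PSAN, PSBY also passed after quantile normalization, at 0.36 (limma adjusted p = 0.018), where 7.41% of probes were called higher. After cyclic loess it was at 0.37 (limma adjusted p = 0.014), where 8.48% were called higher. In averages PSBY passed under neither (limma adjusted p = 0.23 and 0.22). PSBW, a low-mass subunit of photosystem II, was at 0.07 and the assembly factor PSB27 at 0.08, and neither passed. Both lay below 0 as deposited and after quantile or cyclic loess normalization, and PSBW was then called lower after cyclic loess, at −0.38 (limma adjusted p = 0.0034), where 9.76% of probes were called lower. In averages after cyclic loess PSBW did not pass (limma adjusted p = 0.15).

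The single-gene probes with the profile most like that of PSAN were found by the root mean squared distance between centred log2 values over the 12 samples, each gene's values taken minus its own WT mean. Of 649 single-gene probes compared, with a median distance of 0.41, AT3G23940 lay closest at 0.067. It was followed by AT4G32060 at 0.099, LHB1B2 at 0.10, CUTA at 0.12 and AT2G37750 at 0.12. The measure takes in the genotype difference itself, so these genes were bound to differ between the genotypes by about as much as PSAN, and no test was made of the likeness.

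On the deposited scale AT3G23940 had an intensity of lowest 1.24, median 1.37 and highest 1.48 in psae1, against 1.11, 1.16 and 1.26 in WT, and the ranges overlapped. Its centred difference was 0.47, and like PSAN its centred value within psae1 was lowest in number 2 and highest in number 6. AT4G32060 ran from 2.46 to 2.77 in psae1 and from 2.03 to 2.19 in WT, without overlap, at a centred difference of 0.56. CUTA, a plastid protein known to bind copper, ran from 6.999 to 7.96 in psae1 and from 5.79 to 6.77 in WT, also without overlap, at 0.51. Such a separation was seen in 1.16% of all tested probes, but these genes were picked for a difference like that of PSAN. AT2G37750 was dimmer, at 0.611 to 0.713 in psae1 and 0.523 to 0.656 in WT, with overlap and a difference of 0.44. After quantile normalization the differences were 0.35 for AT3G23940, 0.35 for AT4G32060, 0.17 for CUTA and 0.43 for AT2G37750, 0.07 for LHB1B2 and 0.22 for PSAN. Distances were computed on the centred scale only.

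**Figure D5:**
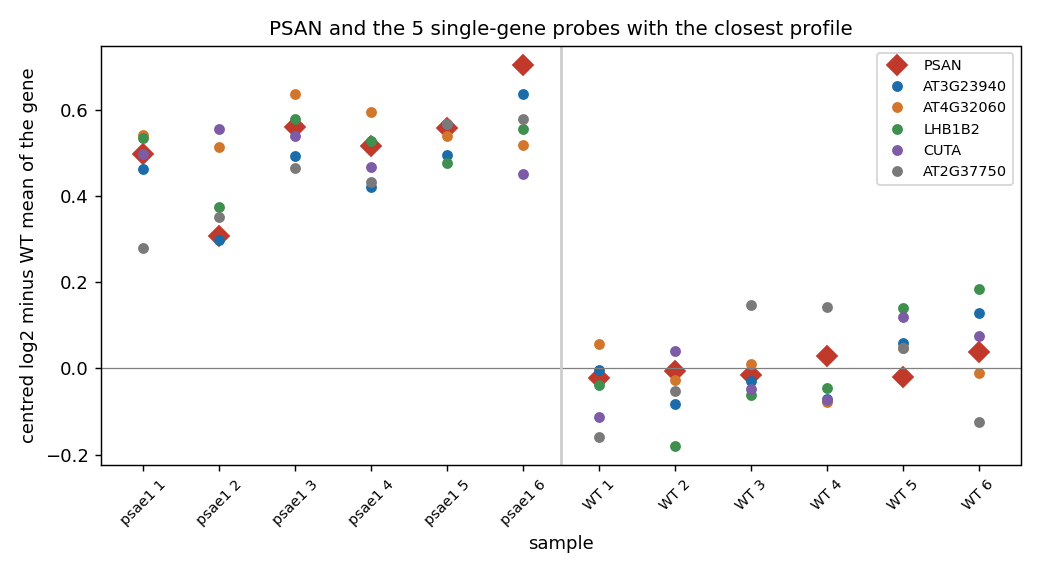
Centred log2 value minus the gene's own WT mean in each psae1 (left) and WT (right) sample, for PSAN (red diamonds) and the 5 single-gene probes closest to it. In psae1 all 6 genes lie above 0 in every sample, and psae1 2 holds the lowest psae1 value of PSAN, AT3G23940, AT4G32060 and LHB1B2.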

How the data were processed

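Expression was measured on arrays in 6 psae1 and 6 WT samples. The deposited table holds a linear intensity per probe and sample; background correction, scaling, scanner and build are not given in the sources used here. From the values, none is negative and 119 probes are at 0 in every sample. Intensities were converted to log2 with 0 as missing, and columns were centred on their medians. Probes with at least 3 values per genotype were fitted with limma 3.58.1 in R 4.3.3 (lmFit, eBayes, two-sided), with Benjamini-Hochberg adjustment over 3279 probes at a threshold of 0.05. The procedure was tested on simulated data. Exact permutation tests used Python 3.11.15, and figures matplotlib 3.10.9.

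Genes came from the platform annotation, matched to the TAIR10.1 gene table for names. There were 692 single-gene probes, 690 of them with a locus, 870 with several genes and 1877 not listed. Named genes were PSAN, the 5 most alike single-gene probes, every tested list member, and probes numbered within 5 of PSAN. The gene, the lists and the tests were chosen with earlier results of these data known.

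Equal numbers deviated together across the genotypes, at r = 0.23 to 0.42 over 3257 probes in 6 of 6 pairs. Unequal numbers were not compared across the genotypes. Whether equal numbers match better than consecutive numbers do was therefore not tested, and the labels do not pair them. The fit without the replicate block is the one reported.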

Additional observations from a re-analysis of the deposited data

How the results depend on the processing

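PSAN was higher in psae1 under all 30 alternative fits (0.21 to 0.58 on the log2 scale; limma adjusted p from 5.5e-05 to 0.39), and passed in 27. The 3 that did not pass average numbers in pairs, with the deposited scale (0.28), quantile (0.22) or cyclic loess normalization (0.21). These, and the fit with drift along the probe numbers removed (0.58), were chosen after seeing the data. Without each sample in turn PSAN was at 0.49 to 0.57. The replicate block left it at 0.52, gave 931 changed probes and changed no call on PSAN or the photosynthesis lists. The like-level difference was 0.33 to 0.40 without each sample, and 0.37 in averages (exact permutation p = 0.10). The same-numbered difference was 0.49 to 0.57 without each number (exact p = 0.062) and 0.52 in averages (exact p = 0.25), each the smallest p that design allows.

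Of 3279 probes 748 changed, 391 higher and 357 lower; without each sample 610 to 761 changed, 327 to 394 higher and 274 to 367 lower. On the deposited scale 1745 changed (111 higher, 1634 lower), and averages there had 17 higher and 665 lower. Averages of centred values had 76 changed, 38 each way. Adding the replicate block to them made it 206 (117 higher, 89 lower). Over the 12 unaveraged samples, a random block called 189 (135 higher, 54 lower), against 748. Without numbers 1 and 2, and so with fewer samples, 393 changed (226 higher, 167 lower). Averaging quantile-normalized values left 57 (14 higher, 43 lower), and averaging after cyclic loess left 47 (13 higher, 34 lower). Quantile normalization gave 243 higher, and log2(value + 0.1) gave 611 higher. Of the 6 photosynthesis list members, 4 passed, 3 to 4 without each sample, and 1 in averages, PSAN. In averages as deposited 1 passed as well, but it was AT1G22700, which was lower (limma adjusted p = 0.023). By limma, 0 passed in averages after quantile or cyclic loess normalization (2 in each at an unadjusted p under 0.05).

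PSBW, which had not passed, turned to −0.18 as deposited, −0.21 with quantile and −0.38 with cyclic loess normalization, and to −0.026 without numbers 3 and 4. PSB27 turned to −0.17, −0.13 and −0.12, and −0.093 without numbers 1 and 2. Probe 86, beside PSAN in number, turned to −0.056 as deposited. On the deposited, quantile and cyclic loess scales, averages gave the same values. Uncentred values shift every fully measured probe down by a common amount, and the cause of the other shifts was not tested.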

Other observations

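After centring, probes adjoining PSAN in number moved in both directions. Of 7 tested probes numbered within 5 of PSAN, probe 86 was called higher, at 0.19 on the centred log2 scale (limma adjusted p = 0.023), and its deposited intensity was 1.39 to 1.56 in psae1 against 1.48 to 1.58 in WT. This call was limited to the centred scale. Probe 86 was at −0.056 as deposited, 0.045 after quantile and 0.066 after cyclic loess normalization (limma adjusted p = 0.40, 0.60 and 0.39). Probes 80, 81 and 88 and the single-gene probe AT2G03140 were called lower, at −0.42, −0.24, −0.50 and −0.33 (limma adjusted p = 0.044, 0.029, 0.0015 and 0.013). Over all tested probes 11.9% were called higher and 10.9% lower. Probes 82 and 83 did not pass, at −0.19 and −0.13. With numbers averaged in pairs the limma adjusted p of all 7 probes ran from 0.072 to 0.54. Whether probe numbers follow the position on the array is not given in the sources used here. With drift along the probe numbers removed, an alternative chosen after seeing the data, PSAN was at 0.58 (limma adjusted p = 0.00018).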
